A study of Homo sapiens with 6 samples.

Results

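The genes described here are the chaperones of the endoplasmic reticulum (ER) and the unfolded protein response, 35 genes whose symbol in the deposited gene count table equals that of a listed member, out of 30270 genes in the table. The list was drawn up by function, by a rule that uses no measured value, but with earlier results of these data known. RNA was compared between 3 libraries of wild-type HEK 293T cells, a transformed human embryonic kidney line (WT), and 3 libraries of HEK 293T cells labelled as a TENT3A/B double knockout (ΔTUT4/7). TENT3A and TENT3B are other names of TUT4 and TUT7, which add uridines to RNA 3′ ends. Both groups were untreated and grown in the same serum-supplemented medium, and libraries were made from total RNA after removal of rRNA. The knockout cells came from another laboratory, the number of clones behind them is not given in the sources used here, and replicates are labelled biological without a statement that cultures were separate, so the p-values measure the spread between these libraries.

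Proteins that enter the ER are folded by HSP70 and HSP90 chaperones, by lectin chaperones that hold N-glycans, and by protein disulfide isomerases, and those that fail to fold are returned to the cytosol and degraded (ER-associated degradation, ERAD). When unfolded proteins accumulate, the membrane sensors IRE1α, PERK and ATF6 start the unfolded protein response. IRE1α splices the XBP1 mRNA and so lets it encode an active transcription factor, ATF6 is cut to release one, and PERK phosphorylates the initiation factor eIF2α, which lowers translation while favouring that of ATF4. Gene counts show neither the splicing of XBP1 nor the cleavage or phosphorylation of the sensors.

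Library totals ran from 18757228 to 33148937 estimated counts. TUT7 was at 62.6 ± 2.16 CPM (counts scaled to a common library size with TMM factors, mean ± SD, n = 3) in WT and 26.2 ± 1.04 in the libraries labelled ΔTUT4/7. TUT4 was higher in the libraries labelled ΔTUT4/7, at 211 ± 5.08 CPM in WT and 905 ± 21.4 CPM in the libraries so labelled. A whole-gene count does not show whether the coding sequence is disrupted, so these levels cannot check the label. Every direction given here is drawn between libraries as labelled. Of the markers of this line, LIN28B and KRT18 were detected in all 6 libraries, and PAX2 only at 1.29 to 2.39 CPM. The intermediate filament genes moved in both directions. NEFM was at 968 ± 123 CPM in WT and at 0, 0 and 1 counts in the libraries labelled ΔTUT4/7, and NEFL at 351 ± 12.4 and 105 ± 1.33 CPM, while INA was at 2.33 ± 0.0918 and 31.4 ± 1.24 CPM and VIM at 495 ± 22.9 and 1250 ± 5.76 CPM. Of 8 markers of blood, endothelium, hepatocytes and fibroblasts, 3 had a row in the table, with a summed level of 19 to 22 CPM in WT and 6.54 to 8.47 CPM in the libraries labelled ΔTUT4/7. Nearly all of that was the collagen gene COL1A1, since PECAM1 and ALB had at most 7 counts in any library, and its part in the results was not tested.

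In the promoters of many ER chaperone genes, an ER stress response element (ERSE) is the known landing site of ATF6, with the CCAAT-binding factor NF-Y, and a shorter form (ERSE-II) is used by ATF6 and XBP1. Promoters from RefSeq (GRCh38.p14, 250 bases before to 50 after each annotated start) were found for 32 members, all but PDIA3, DERL1 and DERL3. The letters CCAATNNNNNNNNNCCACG (ERSE) stood on either strand in 27 of 35116 promoters of that length, a share of 0.0769%, and in those of 8 members: HSPA5, HSP90B1, CRELD2, CALR, CANX, PDIA6, ERO1B and XBP1. The letters ATTGGNCCACG (ERSE-II) stood in 19 promoters, a share of 0.0541%, and in those of HYOU1, SDF2L1 and HERPUD1. The elements are shown because they are shared by members that were higher and by members that were lower in the libraries labelled ΔTUT4/7. They are written 5′ to 3′ on the strand of the gene, with 5 bases on either side and with the fixed letters of the element in capitals, and windows that overlapped an annotated exon are not shown.
HSPA5 (ERSE, chr9:125241386-125241414, minus strand): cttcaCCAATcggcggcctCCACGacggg
CALR (ERSE, chr19:12938379-12938407, plus strand): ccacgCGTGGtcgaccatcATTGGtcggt
PDIA6 (ERSE, chr2:10812848-10812876, minus strand): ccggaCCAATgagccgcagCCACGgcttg
HYOU1 (ERSE-II, distal, chr11:119057375-119057395, minus strand): cgtgaCGTGGtCCAATcccag
HYOU1 (ERSE-II, proximal, chr11:119057269-119057289, minus strand): tgggaCGTGGtCCAATgagta
SDF2L1 (ERSE-II, chr22:21642109-21642129, plus strand): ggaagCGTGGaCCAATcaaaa
CRELD2 (ERSE, chr22:49918549-49918577, plus strand): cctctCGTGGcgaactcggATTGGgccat
ERO1B (ERSE, chr1:236282178-236282206, minus strand): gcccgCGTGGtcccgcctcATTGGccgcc
XBP1 (ERSE, chr22:28800598-28800626, minus strand): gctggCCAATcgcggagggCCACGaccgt
HERPUD1 (ERSE-II, chr16:56932020-56932040, plus strand): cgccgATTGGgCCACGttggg

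The other motifs searched on both strands were the XBP1 core TGACGTGG (0.729% of promoters, HYOU1 among the members), the ATF4 core TGATGNAA (3.62%, HERPUD1), the heat shock element GAANNTTCNNGAA (0.490%, 0 members) and the CCAAT box CCAAT (34.6% of promoters, 24 members), which is part of the longer elements. In HYOU1 the XBP1 core overlapped the distal ERSE-II. A match describes letters and not a bound site.

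All 35 members passed the filter on low counts. By edgeR's quasi-likelihood test at a false discovery rate (FDR) under 0.05, adjusted over 23952 genes, 14 members were higher and 14 lower in the libraries labelled ΔTUT4/7, and 7 were not called. Of all genes tested, 28.6% were higher, 29.0% lower and 57.7% called in either direction, against 80% of the members. Among 12448 protein-coding genes averaging at least 50 counts a library, whose depth is nearer to that of the members, 42.7% were higher, 31.7% lower and 74.4% called in either direction, and of the members 40% were higher and 40% lower. No member was called at 2-fold or more higher (5.90% of all genes were) and 2 members, XBP1 and ERO1B, fell by at least 2-fold (12.4% of all genes did). ERO1B lay on that limit, and under 5 of 16 other ways of processing XBP1 alone passed it. ERO1B was then at -0.97 without WT replicate 2, -0.96 without ΔTUT4/7 replicate 1 and -0.90 with correction for GC content and length, and just short of 2-fold with no count filter or a replicate block. In 28 of the 35 members the groups did not overlap, against 62.7% of all genes and 9623 of the 12448 protein-coding genes of that depth. The median log2 fold change was -0.01 over the members, -0.02 over all genes tested and 0.08 over the protein-coding genes of that depth. Scaling by library size in place of TMM moved the median of all genes to -0.13, and small changes moved with it, by over 1.5 times for HSPA5 (0.15), HSP90B1 (0.17), CALR (0.21), PDIA6 (0.23), UGGT1 (-0.26), ERO1A (-0.31), ATF6 (-0.28), SYVN1 (-0.29) and EDEM3 (-0.26), which all kept their calls. The members took 0.600% to 0.623% of the counts of a WT library and 0.640% to 0.651% in the libraries labelled ΔTUT4/7.

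The higher members were mostly folding genes. The 19 folding genes (HSP70 and HSP90 chaperones with their cofactors, lectin chaperones, disulfide enzymes) held 13 of the 14 higher members, with 5 lower and a median log2 fold change of 0.33. The 14 sensors, transcription factors and ERAD genes held 9 of the 14 lower members, with 0 higher and a median of -0.17. Roles were pooled in this way after their values had been seen, so the split is a description and was not tested. Under the 16 other ways of processing it ran from 12 to 13 higher and 4 to 6 lower for the folding genes, and from 0 to 1 higher and 6 to 11 lower for the others. Subtraction of the neighbour median shrank the folding side. Medians went from 0.27 to 0.09 for HSP70 and HSP90 chaperones, 0.36 to 0.18 for lectin genes and 0.34 to 0.0012 for disulfide enzymes. Those of sensors and transcription factors went from -0.35 to -0.24, and of ERAD genes from -0.15 to -0.29.

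**Figure D1:**
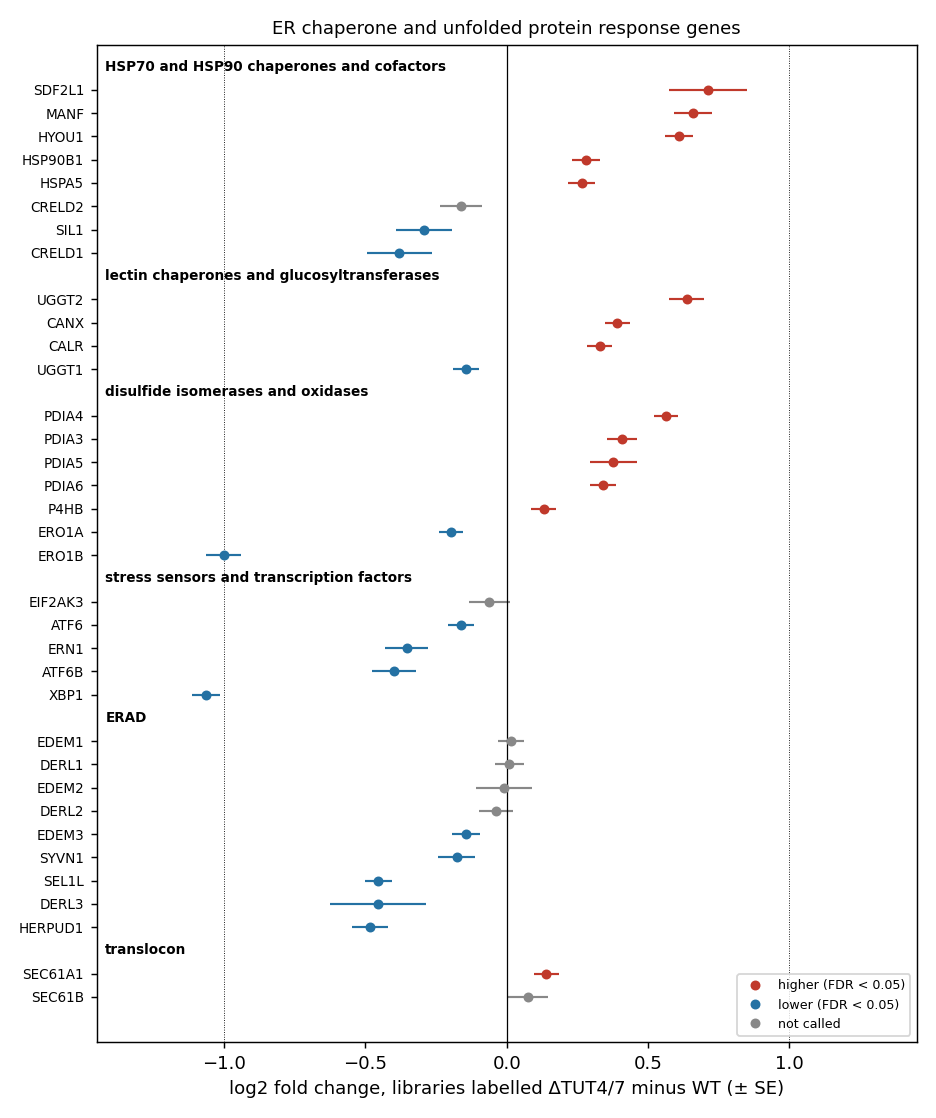
Log2 fold change (x axis, libraries labelled ΔTUT4/7 minus WT) of each of the 35 members, ordered within 6 roles on the y axis. Points are estimates from 3 libraries per group and bars are ± SE, red is higher, blue lower and grey not called. The 13 higher folding genes lie between 0.13 and 0.71, and no sensor or ERAD gene is red.

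HSPA5 (BiP, chromosome 9, 125234853 to 125241343 on hg38), the ER HSP70 that also holds the stress sensors inactive, rose modestly. It was at 430, 455 and 491 CPM in WT replicates 1, 2 and 3 and at 565, 545 and 543 CPM in the libraries labelled ΔTUT4/7, with no overlap (log2 fold change 0.27 ± 0.05 SE, edgeR adjusted p = 6.09e-05). Its neighbours, expressed genes within 5 Mb, had a median log2 fold change of 0.10. HSP90B1 (GRP94), the ER HSP90, rose by a like amount, from 692 ± 48.9 to 841 ± 9.37 CPM (0.28 ± 0.05, adjusted p = 3.29e-05). The neighbours of HSP90B1 had a median of 0.29, so its change did not exceed that of its neighbourhood.

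HYOU1 (GRP170, chromosome 11, 119044188 to 119057227), the ER member of the HSP110 family and a nucleotide exchange factor of BiP, rose more. It was at 161, 147 and 158 CPM in WT and 249, 226 and 235 CPM in the libraries labelled ΔTUT4/7 (log2 fold change 0.61 ± 0.05, adjusted p = 6.55e-10). The lowest library labelled ΔTUT4/7 was well above the highest of WT, and the neighbours of HYOU1 had a median of 0.01. SIL1, the other exchange factor of BiP, moved the opposite way, from 14.1 ± 1.04 to 11.5 ± 0.668 CPM (-0.29 ± 0.10, adjusted p = 0.016), a call that did not hold without WT replicate 1 (-0.24) or without ΔTUT4/7 replicate 3 (-0.25).

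SDF2L1 (chromosome 22, 21642302 to 21644299), a partner of ER J-domain proteins, had the highest fold change of the members but a low level. It was at 4.32, 6.11 and 4.95 CPM in WT and 8.57, 7.88 and 8.88 CPM in the libraries labelled ΔTUT4/7 (log2 fold change 0.71 ± 0.14, adjusted p = 0.000136). That rank did not hold under every alternative. With correction for GC content and length SDF2L1 was at 0.49, below UGGT2 (0.74), and without WT replicate 1 at 0.61, below HYOU1 (0.63). It was also below MANF without WT replicate 3 (0.67 against 0.73) and with limma on log2(CPM + 1) (0.533 against 0.542). MANF (chromosome 3, 51385291 to 51389397), a BiP-binding protein that is also secreted, was at 30.5, 34.5 and 37.6 CPM in WT and 55.1, 54.5 and 53.0 CPM in the libraries labelled ΔTUT4/7 (0.66 ± 0.07, adjusted p = 3.45e-08). Neither gene's groups overlapped, but the neighbours differed. Those of MANF had a median of 0.55 and those of SDF2L1 one of -0.15.

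The cysteine-rich CRELD proteins did not follow MANF and SDF2L1. CRELD1 fell from 13.6 ± 1.78 to 10.5 ± 1.18 CPM (-0.38 ± 0.11, adjusted p = 0.00724) while its neighbours had a median of 0.58. That call was lost without WT replicate 3 (-0.27) and without ΔTUT4/7 replicate 1 (-0.31), and 96.0% of the exonic bases of CRELD1 are shared with other annotated genes, so its count is uncertain. CRELD2, a secreted ER stress gene with an ERSE, was at 27.8 ± 2.27 and 24.9 ± 0.674 CPM (-0.16 ± 0.08, adjusted p = 0.0738) and was called lower under 6 of the 16 other ways of processing, among them leaving out WT replicate 2 (-0.23).

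**Figure D2:**
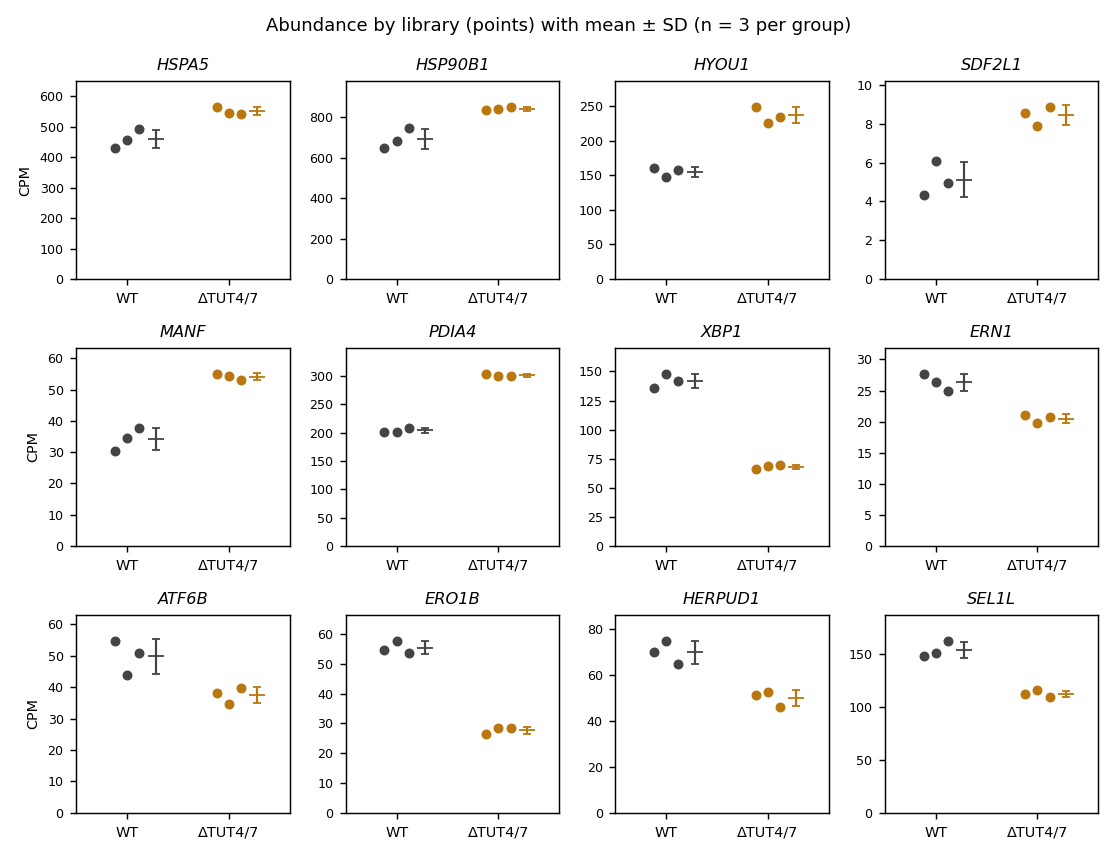
CPM (y axis, from 0, scale differs between panels) of 12 members in each library, with WT on the left and the libraries labelled ΔTUT4/7 on the right of each panel. Points are libraries and bars are mean ± SD (n = 3). Groups do not overlap in any of the 12 panels, with the first 6 genes higher and the last 6 lower in the libraries labelled ΔTUT4/7.

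Calreticulin (CALR) and calnexin (CANX), the soluble and the membrane-bound lectin that hold glycoproteins during folding, both rose. CALR went from 531 ± 29.3 to 667 ± 12 CPM (log2 fold change 0.33 ± 0.05, adjusted p = 2.23e-06) and CANX from 1200 ± 49.7 to 1580 ± 14.6 CPM (0.39 ± 0.04, adjusted p = 8.26e-08). The neighbours of CANX had a median of 0.17. CLGN (calmegin), a lectin like calnexin outside the members, set here after its values were seen, was lower (-1.38 ± 0.11, adjusted p = 8.25e-10). Per kb of transcript, CALR and CANX were at 280 and 245 CPM in WT, near the 249 CPM of HSP90B1 and above the 117 CPM of HSPA5.

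The glucosyltransferases that return unfinished glycoproteins to these lectins split. UGGT2 (chromosome 13, 95801580 to 96053482) was at 33.5, 37.4 and 33.6 CPM in WT and 55.5, 54.3 and 52.6 CPM in the libraries labelled ΔTUT4/7 (0.64 ± 0.06, adjusted p = 1.41e-08), without overlap, beside a median of 0.50 for its neighbours. UGGT1, the more abundant paralog, fell from 213 ± 4.79 to 192 ± 10.0 CPM (-0.14 ± 0.05, adjusted p = 0.0112). It was not called without ΔTUT4/7 replicate 2 (-0.10) or after correction for GC content and length (0.01). Per kb, UGGT1 and UGGT2 were at 19.8 and 7.18 CPM in WT and at 17.9 and 11.2 CPM in the libraries labelled ΔTUT4/7.

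All 5 protein disulfide isomerases among the members were called higher, P4HB less firmly than the others, while PDIA2, an isomerase outside the members named here after its values were seen, was lower (log2 fold change -0.52 ± 0.18, adjusted p = 0.0144). PDIA4 (ERp72, chromosome 7, 149003062 to 149028662) was at 201, 202 and 208 CPM in WT and 304, 300 and 300 CPM in the libraries labelled ΔTUT4/7 (log2 fold change 0.56 ± 0.04, adjusted p = 1.73e-10). Replicates lay close together and far from the other group, but its neighbours had a median of 0.56 too. PDIA3 (ERp57), the isomerase that works with the lectins, rose by 0.41 ± 0.05 (adjusted p = 1.1e-06), PDIA5 by 0.38 ± 0.08 (adjusted p = 0.000508) and PDIA6 by 0.34 ± 0.05 (adjusted p = 2.04e-06), each with a neighbour median between -0.02 and 0.05.

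Counts of these genes carry limits. The processed pseudogene PDIA3P1 held counts equal to 55.8% of those of PDIA3 and had a log2 fold change of 0.39, and with its counts added PDIA3 was at 0.40. In PDIA6, 45.3% of exonic bases overlap ATP6V1C2 on the opposite strand, and the sources used here do not say whether strand was used in counting. Apart from CRELD1, PDIA6 and DERL3, members shared at most 21.7% of their exonic bases with other genes. P4HB (PDI), the archetype of the family, went only from 422 ± 20.4 to 461 ± 10.7 CPM (0.13 ± 0.04, adjusted p = 0.0167). That call held under 8 of 16 alternatives and was lost with scaling by library size (0.02) and without WT replicate 2 (0.09), ΔTUT4/7 replicate 1 (0.12) or ΔTUT4/7 replicate 3 (0.13), among others, and P4HB changed less than its neighbours, whose median was 0.27.

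The oxidases that recharge the isomerases went the other way. ERO1B (chromosome 1, 236215101 to 236281958) was at 54.6, 57.7 and 53.5 CPM in WT and 26.3, 28.5 and 28.3 CPM in the libraries labelled ΔTUT4/7 with a wide gap between the groups (log2 fold change -1.0 ± 0.06, adjusted p = 1.22e-11). Its neighbours had a median of -0.48. ERO1A, which was the more abundant oxidase per kb in WT (41.4 against 11.1 CPM), fell from 213 ± 2.45 to 186 ± 5.27 CPM (-0.20 ± 0.04, adjusted p = 0.000495), or by 0.09 on the log2 scale, still called, after correction for GC content and length.

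XBP1 (chromosome 22, 28794555 to 28800597), the transcription factor made by the IRE1α branch, had the largest decrease of the 35 members. It was at 136, 148 and 142 CPM in WT and 66.2, 68.3 and 69.9 CPM in the libraries labelled ΔTUT4/7, 0.478 of the WT level (log2 fold change -1.06 ± 0.05, adjusted p = 1.03e-13). Even the highest library labelled ΔTUT4/7 was far under the lowest of WT. Neighbours of XBP1 had a median of -0.20, and no exonic base of it is shared with another gene. Over the 16 alternatives its log2 fold change lay between -1.18 and -1.04, and it was called in each.

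ERN1 (chromosome 17, 64039142 to 64130819), which encodes IRE1α, was at 27.7, 26.4 and 24.9 CPM in WT and 21.1, 19.8 and 20.7 CPM in the libraries labelled ΔTUT4/7 (-0.35 ± 0.08, adjusted p = 0.000375). The groups did not overlap, and the neighbours of ERN1 had a median of -0.30. ATF6B (chromosome 6, 32115264 to 32128253), the paralog of ATF6, was at 54.8, 43.8 and 50.8 CPM in WT and 38.3, 34.8 and 39.8 CPM in the libraries labelled ΔTUT4/7 (-0.40 ± 0.08, adjusted p = 0.000227). WT replicate 2 was the lowest of its group yet stood above all libraries labelled ΔTUT4/7.

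ATF6 (chromosome 1, 161766320 to 161964070) changed less, from 125, 138 and 130 CPM in WT to 116, 116 and 118 CPM in the libraries labelled ΔTUT4/7 (-0.16 ± 0.05, adjusted p = 0.00609). After correction for GC content and length it was at -0.01 and not called. EIF2AK3 (chromosome 2, 88556741 to 88627464), which encodes PERK, was at 34.0, 33.2 and 29.1 CPM in WT and 29.9, 31.6 and 30.7 CPM in the libraries labelled ΔTUT4/7. Its groups overlapped, and its log2 fold change was -0.06 with a 95% interval from -0.21 to 0.09 (adjusted p = 0.49). With scaling by library size EIF2AK3 was called lower (-0.18).

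Of the 9 ERAD genes, 5 were lower and 4 were not called. HERPUD1 (chromosome 16, 56932142 to 56944864), a membrane scaffold of the degradation complex, was at 69.8, 74.8 and 64.9 CPM in WT and 51.1, 52.7 and 46.0 CPM in the libraries labelled ΔTUT4/7 (log2 fold change -0.48 ± 0.06, adjusted p = 1.24e-06). SEL1L (chromosome 14, 81471547 to 81533853), the adaptor of the ubiquitin ligase HRD1, was at 149, 151 and 163 CPM in WT and 113, 116 and 110 CPM in the libraries labelled ΔTUT4/7 (-0.45 ± 0.05, adjusted p = 4.57e-08). Neither overlapped, and both fell while their neighbours had positive medians, of 0.27 for HERPUD1 and 0.24 for SEL1L. SEL1L was at -0.30, still called, after correction for GC content and length.

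SYVN1, which encodes HRD1 itself, fell from 32.7 ± 1.01 to 28.9 ± 1.05 CPM (-0.18 ± 0.07, adjusted p = 0.0275), a call lost with DESeq2 (-0.18) and without WT replicate 3 (-0.16), ΔTUT4/7 replicate 1 (-0.18) or ΔTUT4/7 replicate 2 (-0.15). DERL3 (chromosome 22, 23834503 to 23839128), a channel protein of the derlin family, was the least abundant member, at 5.34, 3.88 and 4.59 CPM in WT and 3.18, 3.81 and 3.06 CPM in the libraries labelled ΔTUT4/7. The groups came within a small gap of each other (-0.46 ± 0.17, adjusted p = 0.0267), the call was lost with DESeq2 (-0.46) and without WT replicate 1 (-0.35), ΔTUT4/7 replicate 1 (-0.41) or ΔTUT4/7 replicate 3 (-0.40), and 88.8% of the exonic bases of DERL3 are shared with SMARCB1 on the opposite strand. EDEM3, one of the mannosidase-like proteins that mark glycoproteins for degradation, had a log2 fold change of -0.15 ± 0.05 (adjusted p = 0.0159) that was not called after the correction for GC content and length (0.0026) or without WT replicate 1 (-0.13) or ΔTUT4/7 replicate 1 (-0.12).

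For the ERAD members not called, the 95% intervals of the log2 fold change bound the difference. They were -0.08 to 0.11 for EDEM1 and -0.22 to 0.20 for EDEM2, mannosidase-like as EDEM3. The derlins DERL1 and DERL2 had intervals of -0.10 to 0.12 and -0.17 to 0.09. EDEM1 was called higher after the correction for GC content and length (0.14). DERL2 was called lower with scaling by library size (-0.15) and with limma on log2(CPM + 1) (-0.15).

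The members of the translocon, the channel through which proteins enter the ER, hardly moved. SEC61A1, its pore subunit, went from 239 ± 6.66 to 263 ± 7.95 CPM (0.14 ± 0.04, adjusted p = 0.0089), a call lost under 5 alternatives, among them scaling by library size (0.03) and leaving out WT replicate 1 (0.11). SEC61B, a small subunit, was at 34.0 ± 2.47 and 35.9 ± 2.89 CPM (0.07, 95% interval -0.08 to 0.23).

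**Figure D3:**
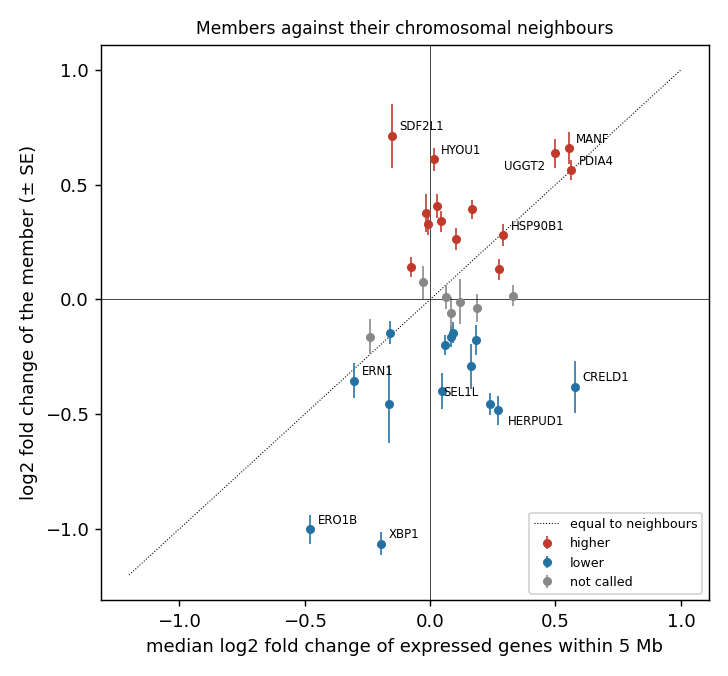
Log2 fold change of each member (y axis, ± SE, libraries labelled ΔTUT4/7 minus WT) against the median log2 fold change of expressed genes within 5 Mb on the same chromosome (x axis). The dotted line marks equal change. PDIA4, MANF, UGGT2, HSP90B1 and ERN1 lie near the line, while HYOU1 and SDF2L1 lie well above it and XBP1, HERPUD1 and SEL1L well below.

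Members with an ER stress element did not move as one. Of the 11 with an ERSE or ERSE-II, 7 were higher (HSPA5, HSP90B1, HYOU1, SDF2L1, CALR, CANX and PDIA6), 3 were lower (XBP1, ERO1B and HERPUD1) and CRELD2 was not called, with a median log2 fold change of 0.28. The element of XBP1 shown above has the same fixed letters on the same strand as that of HSPA5, and their log2 fold changes were -1.06 and 0.27. Of 33 other genes with either element, chosen after the promoters had been searched, 21 were tested, of which 4 were higher, 10 lower and 7 not called, with a median of -0.16. MANF, PDIA4 and UGGT2, which were among the most increased members, had neither element within these 300 bases.

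Further genes of the same compartment were taken from lists by function, described by counts and medians without a test. Of 7 ER J-domain proteins, which deliver clients to BiP, 2 were higher and 1 lower (median 0.12). DNAJC10 rose by 0.49 ± 0.04 (adjusted p = 3.61e-09) and DNAJB11 by 0.41 ± 0.06 (adjusted p = 1.24e-05), while DNAJB9, a known XBP1 target, fell by 0.50 ± 0.09 on the log2 scale (adjusted p = 3.48e-05). Of 15 other ER thiol enzymes tested, 8 were higher and 3 lower (median 0.19). In that list the thioredoxin-like TXNDC5 had the most marked increase, from 78.7 ± 5.86 to 170 ± 11.3 CPM (1.11 ± 0.06, adjusted p = 6.05e-12), and ERP29 rose by 0.83, while the peroxidase GPX8 (-0.65) and the membrane thioredoxin TMX4 (-0.21, not called with the GC and length offset) were lower. Neighbours of ERP29 had a median of 0.49, against 0.10 for TXNDC5, 0.01 for GPX8 and 0.15 for TMX4. ER prolyl isomerases and the collagen chaperone counted 2 higher and 4 lower of 9 (median -0.17), with FKBP11 (0.41) and PPIB (0.25) among the higher and FKBP7 (-1.30) and FKBP9 (-0.68) among the lower. Neighbours had medians of 0.28 for FKBP11, -0.09 for PPIB, -0.19 for FKBP7 and -0.06 for FKBP9.

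The list of N-glycan trimming and oligosaccharyltransferase genes counted 8 higher and 6 lower of 18 (median 0.06). Most of them attach or trim the glycans read by the lectins, but MLEC and CLGN are themselves lectins. MLEC (malectin, 1.14) and the catalytic subunit STT3B (0.70) were higher, and TUSC3 (-2.24) and the calnexin-like CLGN (calmegin, -1.38) lower. Neighbour medians were 0.79 for MLEC, 0.38 for STT3B, -0.63 for TUSC3 and -0.015 for CLGN. Genes of the translocon, signal peptidase and signal recognition particle counted 9 higher and 6 lower of 21 (median 0.12), with the translocon partner TRAM1 (0.53) and the receptor subunit SRPRB (0.59) higher and the signal peptidase SEC11A (-1.03) and SRP9 (-0.33), a protein of the particle, lower. Their neighbour medians were 0.04 for TRAM1, 0.06 for SRPRB, -0.62 for SEC11A and -0.11 for SRP9. Unlike the ERAD members, the 22 other ERAD factors counted 13 higher and 6 lower (median 0.19). Among them the lectin OS9 (0.84) and the cytosolic glycanase NGLY1 (0.94) were higher, and FAM8A1, a partner of HRD1 (-0.55), and the ubiquitin ligase RNF5 (-0.41) lower. Neighbour medians were 0.19 for OS9, 0.17 for NGLY1, 0.05 for FAM8A1 and 0.04 for RNF5. After subtraction of the neighbour median, the 22 factors had a median of 0.02 and the ERAD members one of -0.29. Whether the ERAD members and these factors differ was not tested.

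On the PERK branch, 3 of 14 genes were higher and 7 lower (median -0.28). CHAC1, a glutathione-degrading enzyme and known target of this branch, fell from 13.7 ± 3.83 to 1.77 ± 0.223 CPM (-2.91 ± 0.21, adjusted p = 4.25e-08) and CEBPG by 0.60 on the log2 scale, while EIF2S1, which encodes eIF2α (0.62), and the BH3-only gene BCL2L11 (0.44) were higher. ATF4 itself, named here after its values were seen, was at 601 ± 12.6 CPM in WT and 473 ± 3.9 CPM in the libraries labelled ΔTUT4/7 (-0.35 ± 0.04, adjusted p = 2.65e-07), and DDIT3 (CHOP), likewise, at 9.62 ± 0.378 and 8.08 ± 0.635 CPM (adjusted p = 0.0664). The neighbours of ATF4 had a median of -0.25, so little of its fall exceeded that of its neighbourhood, and those of DDIT3 had a median of 0.22. Of 11 other transcription factors and regulators tested, 5 were higher and 5 lower (median -0.01). The adaptor TRAF2 (0.98) and CREB3 (0.86) were higher, and CREB3L2 (-0.72) and MBTPS1, the protease that makes the first cut in ATF6 (-0.59), were lower. Neighbour medians were 0.35 for TRAF2, 0.01 for CREB3, 0.18 for CREB3L2 and -0.28 for MBTPS1.

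**Figure D4:**
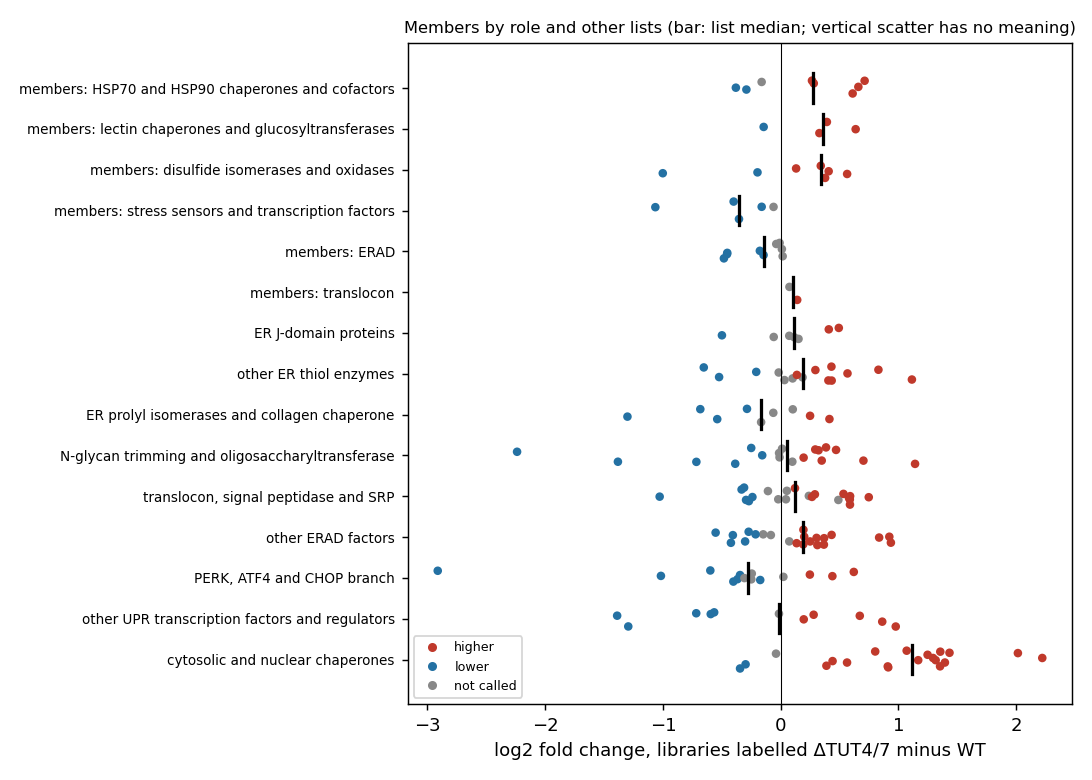
Log2 fold change (x axis, libraries labelled ΔTUT4/7 minus WT) of the members by role (top 6 rows) and of 9 further lists (y axis). Each point is a gene, red higher, blue lower and grey not called, and the black bar is the median of the row. The cytosolic and nuclear chaperones stand furthest right with a median of 1.12, against medians from -0.35 to 0.36 for the roles of the members.

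Cytosolic and nuclear chaperones had higher fold changes than those of the ER. Of 20, 17 were higher, 2 lower (HSPA4L, -0.35, or 0.51 after subtraction of its neighbours' median of -0.86, and DNAJB4, -0.30) and 11 at least 2-fold higher, with a median of 1.12, HSPA1B (2.22 ± 0.05, adjusted p = 2.48e-17) and HSPH1 (2.01 ± 0.05, adjusted p = 3.35e-18) among them. HSPA1B has a near-identical copy in HSPA1A, so the split of reads between them is uncertain. The difference was measured directly in 5 pairs of an ER chaperone and a cytosolic counterpart as the log2 ratio of their CPM within each library, which does not depend on scaling.

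The ratio of HSPA5 to HSPA8, the constitutive cytosolic HSP70, was -0.93, -1.27 and -1.14 in WT and -2.20, -2.28 and -2.28 in the libraries labelled ΔTUT4/7, a difference of -1.14 ± 0.10 (SE). For HSP90B1 the difference was -1.07 ± 0.05 against HSP90AB1 and -1.03 ± 0.06 against HSP90AA1. HYOU1 against its cytosolic relatives differed by -1.41 ± 0.10 with HSPH1 and by -0.30 ± 0.09 with HSPA4. In all 5 pairs the groups did not overlap, and the exact two-sided permutation test gave p = 0.1 for each (0.1 adjusted over the 5), the smallest p that 3 against 3 libraries allow. HSP90B1 and HYOU1 recur, so the 5 pairs are not separate observations. The ratios restate fold changes of genes chosen with earlier results of these data known.

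**Figure D5:**
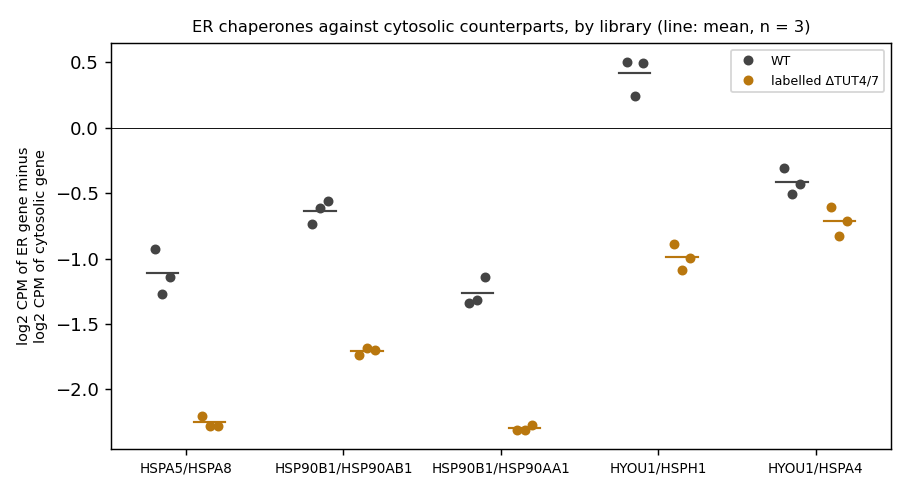
Log2 ratio of the CPM of an ER chaperone to that of a cytosolic counterpart (y axis) for 5 pairs (x axis). Points are libraries, lines are means (n = 3), grey is WT and orange the libraries labelled ΔTUT4/7. In each pair all orange points lie below all grey ones, by 1.03 or more between means in 4 pairs and by 0.30 for HYOU1 against HSPA4.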

How the data were processed

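Total RNA of 6 HEK 293T libraries was sequenced after removal of rRNA. The authors aligned paired reads to hg38 with STAR 2.7.3a and estimated counts per Ensembl gene in Partek Flow 10.0.22 by expectation maximisation, per the submitters' processing notes and methods, and deposited these estimated counts (45.22% to 49.95% of values in a library not whole, by a tolerance of 1e-09). Reads shared between similar or overlapping genes are split by that model. The authors' own comparison table (p-values, FDR, ratios, fold changes, group means) was not used.

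Counts were rounded, genes with a largest count above 12 kept (23952), and groups compared with edgeR 4.0.16 in R 4.3.3 (TMM, glmQLFit robust, glmQLFTest, Benjamini-Hochberg over all genes kept, called at FDR under 0.05). The biological coefficient of variation was 6.44%. The test was also run on simulated data in which only a small part of the genes was changed. That does not test the scaling under changes as widespread as these. Lengths and GC contents are of GENCODE release 44 canonical transcripts, found for 98.7% of genes kept, and gene positions are those of the deposited table. Neighbours are genes within 5 Mb with a mean count of 50 or more. Ratios used log2 CPM with a prior count of 2.

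Members and lists were chosen with earlier results of these data known. Values in every library are given for the 5 sensors and transcription factors and for the 10 called members with the largest change and a mean count of 50 or more, and in addition for HSPA5. From every list the 2 called genes with the smallest p in each direction are named. Alternatives were library size, RLE and upper-quartile scaling, DESeq2 1.42.0, limma-voom and limma 3.58.1 on log2(CPM + 1), 2 other count filters, a replicate block, each library left out, a GC and length offset and subtraction of the neighbour median. Adding PDIA3P1 to PDIA3, the CCAAT box and the description of other genes with an ER stress element were chosen after seeing the data.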

Additional observations from a re-analysis of the deposited data

How the results depend on the processing

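Over 16 alternatives with a test, 19 of the 28 called members kept their call in each, and the counts of members called stayed between 12 and 14 higher and between 10 and 17 lower. Among the 28 called members, direction turned for HSP90B1 (-0.0119), P4HB (-0.14) and EDEM3 (0.0124) after subtraction of the neighbour median. With the GC and length offset it turned for UGGT1 (0.0106) and EDEM3 (0.0026). The cytosolic HSPA4L turned (0.51) after subtraction of the neighbour median. Members not called turned too, among them EDEM1 (-0.31), CRELD2 (0.08) and DERL1 (-0.05) after that subtraction. The cause was not tested. Library-size scaling shifted the all-gene median from -0.02 to -0.13, with 5552 higher and 8269 lower in place of 6855 and 6958, upper-quartile scaling to -0.12 (5728 and 8121) and limma on log2(CPM + 1) to -0.09 (5589 and 8381). P4HB and SEC61A1 lost their calls under these scalings. With a replicate block, 14 members were higher and 14 lower, and 6832 and 6846 of all genes. Deviations of same-numbered libraries correlated at 0.052, -0.011 and -0.022 across genes, and those of differently numbered libraries at -0.09 to 0.095. No pairing by number was seen, but such values cannot exclude that same-numbered libraries were prepared together. Leaving out a library cost calls of SIL1, CRELD1, UGGT1, P4HB, SYVN1, EDEM3, DERL3 and SEC61A1. Depth limits DERL3 and SDF2L1 most, with mean counts of 97.2 and 166 per library.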
